A study of Homo sapiens with 6 samples.

Results

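The transglutaminase family comprised 8 genes, TGM1 to TGM7 and F13A1, taken by their symbols from the 19684 Ensembl genes measured in K1 cells, and all 8 were found in each library and in the group table. K1 is a cell line derived from a human papillary thyroid carcinoma. Polyadenylated RNA was sequenced from 3 libraries of cells transfected with a negative control small interfering RNA (NC) and 3 libraries of cells transfected with a small interfering RNA against NEAT1_2, the long transcript of the paraspeckle RNA NEAT1 (si-NEAT1_2). Both groups are the same cell line, and the labels tell them apart by the transfected RNA and also give each library a code (L2, L3 or L4). A further table gave 1 value per gene for each group. NEAT1 itself was not analysed here, so the group labels were not checked against their target. The methods speak of 3 pairs but do not say whether the libraries of a group came from separate cultures, so the p-values measure the spread between these libraries, which may be technical.

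Transglutaminases join a glutamine of a protein to a lysine of another, or to a small amine, in a reaction that needs calcium, and the bonds they form resist proteases. TGM2 (transglutaminase 2, tissue transglutaminase) is the widely expressed member, acts inside cells and on the matrix, where it binds fibronectin and integrins, and also binds GTP. TGM1, TGM3 and TGM5 cross-link the cornified envelope of the epidermis, TGM4 acts on proteins of the seminal clot, and F13A1 is the catalytic subunit of coagulation factor XIII, which stabilizes fibrin.

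In these libraries TGM2 was the member that was clearly transcribed, and the other 7 were at or near 0. TGM2 did not pass the test between the si-NEAT1_2 and NC libraries, with a fitted change of -2.35% (95% interval -19.5% to 18.5%). The group table, which has no replicates, gave a decrease of 66.7% for the same gene, from values that lie above those of every library. The study reported a decrease of this size for TGM2 from its sequencing of K1 cells. It also reported less TGM2 mRNA by quantitative PCR and less protein by western blotting in thyroid cancer cells after NEAT1_2 knockdown. The FPKM of TGM2 varied more between libraries than its counts did, and the transcript length implied by the deposited values differed between libraries as well.

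Part of the study's work on TGM2 concerned regulation through miR-491, a microRNA that pairs by its seed with target messages. The sequence of hsa-miR-491-5p (RefSeq, GRCh38.p14, plus strand, chr9:20716120-20716141) is shown with its seed, bases 2 to 8, in capitals.
miR-491-5p: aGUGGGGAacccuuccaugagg
The complement of this seed, TCCCCAC, was searched on the transcribed strand of the longest coding transcript's 3′ UTR in each member (GENCODE release 29, GRCh38). Matches were found in 3 of 8 members, and each is printed with the match in capitals and 11 bases on either side. Within the family, the miR-491 question of the study concerned TGM2. Positions in the 3′ UTR are counted from 1, the base that follows the stop codon.
TGM2 position 179 (chr20:38130034-38130040, minus strand, exon 13): gagcctgtgggTCCCCACtcacccccttt
TGM2 position 2701 (chr20:38127512-38127518, minus strand, exon 13): attcatctcatTCCCCACcatcgaagcac
TGM2 position 2757 (chr20:38127456-38127462, minus strand, exon 13): gatggggacagTCCCCACccttgggaagt
TGM5 position 77 (chr15:43233108-43233114, minus strand, exon 13): agctgcgccatTCCCCACcacaacagagg
F13A1 position 377 (chr6:6145236-6145242, minus strand, exon 15): agacttcagatTCCCCACtcagccttttg
TGM2 had 3 matches and TGM5 and F13A1 had 1 each, whereas TGM1, TGM3, TGM4, TGM6 and TGM7 had 0 in this window. The 3′ UTR of TGM2 is 2832 bases, 55.9% of its transcript, against 110 to 1534 bases in the other members. Of the 3′ UTRs of 19572 coding genes, 16.3% held at least 1 match, and of those with 0.5 to 2 times the length of the TGM2 3′ UTR 26.3% did. For the lengths of the TGM5 and F13A1 3′ UTRs this share was 10.6% and 19.4%. These matches are a description of the letters, and whether miR-491 binds at them was not tested here. The study reported that miR-491 lowered luciferase activity from a TGM2 3′ UTR reporter, and not from one with mutated predicted sites. It also reported less TGM2 protein in cells given a miR-491 mimic.

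The genes are spread over 5 chromosomes of GRCh38. TGM2 lies on the minus strand at chr20:38127387-38166578, and the opposite strand of the same span carries part of RPRD1B. TGM3 (chr20:2296001-2341078) and TGM6 (chr20:2380908-2432753) are neighbours on the plus strand of the same chromosome, 39829 bases apart with 0 coding genes between them. TGM5 (chr15:43232595-43266857) and TGM7 (chr15:43276280-43302255) are neighbours on the minus strand of chromosome 15, 9422 bases apart, next to EPB42, an erythrocyte membrane protein related to transglutaminases that lacks the enzyme activity. TGM1 lies at chr14:24249114-24264432 on the minus strand, TGM4 at chr3:44874608-44914990 on the plus strand and F13A1 at chr6:6144085-6321013 on the minus strand. Their longest coding transcripts share a common plan, with 13 to 15 exons and 2052 to 2451 coding bases. No stretch of 50 bases occurred in transcripts of more than 1 member (0 shared), and of the 8032 such stretches of TGM2 18 occurred in another gene.

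The libraries held between 22798631 and 27066025 counts, so 3 counts, the upper limit that a count of 0 allows, corresponded to 0.111 to 0.132 CPM (counts scaled to a common library size). No 2 libraries agreed within sampling noise, the smallest chi-square per degree of freedom of any pair being 12.4. The library si-NEAT1_2 replicate 2 stood apart. Its log2 CPM correlated with those of the other libraries at 0.944 to 0.980, against 0.967 to 0.989 among the other 5, and its scaling factor, 0.927, was the lowest. Of the thyroid markers, PAX8 was at 113 to 169 FPKM (fragments scaled to transcript length and library size), FOXE1 at 5.75 to 8.78 and TG at 2.48 to 2.99, whereas TSHR, SLC5A5 and NKX2-1 were under 1 FPKM in every library. The defining markers of leukocytes (PTPRC, CD14, CD163), endothelium (VWF, CDH5, PECAM1), keratinocytes (TP63, KRT1, KRT5, KRT14) and prostate epithelium (KLK3, KLK2) were also under 1 FPKM throughout.

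Values of a group are given in the order of replicates 1, 2 and 3. TGM2 had expected counts of 10357, 8890 and 9969 in NC, and of 8837, 7954 and 10615 in si-NEAT1_2. Scaled by TMM (trimmed mean of M-values), these were 379, 378 and 390.4 CPM in NC and 363, 333 and 424 CPM in si-NEAT1_2. The 3 NC libraries lay close together, and the lowest and the highest library were both in the si-NEAT1_2 group, so the groups overlapped. The mean was 382 ± 7.01 CPM (SD, n = 3) in NC and 373 ± 45.9 CPM (SD, n = 3) in si-NEAT1_2 (two-sided exact permutation test, p = 0.80; the smallest p this design can give is 0.10). On the log2 scale the fitted change was -0.03 (standard error 0.127, 95% interval -0.31 to 0.25), and the Benjamini-Hochberg adjusted p of the quasi-likelihood test in edgeR was 0.879. In bulk RNA, fewer cells that transcribe a gene and less RNA per cell cannot be told apart. The difference was smaller than the spread between replicates, and its interval ends at a decrease of 19.5%.

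Of the 8 members, 2 (TGM1 and TGM2) had enough counts to be tested, and 0 of these were called, which took an adjusted p under 0.05 and a change of 2-fold or more. Over all 12581 genes tested, this rule called 0% in edgeR, and 24.5% had an unadjusted p under 0.05 (3082 genes), which 0 of the 2 members had. DESeq2 called 18 genes higher and 44 lower and limma on log2(FPKM + 1) called 0, without a member among them. Without si-NEAT1_2 replicate 2 the log2 fold change of TGM2 was 0.03, in the opposite direction and without a call. The library code, whose meaning is not stated, was shared by some libraries of both groups. Within code L2, TGM2 was at 384 CPM in NC (n = 2) and 333 CPM in si-NEAT1_2 (n = 1), and within code L3 at 379 CPM and 424 CPM (n = 1 each). The direction thus differed between the codes, at -0.20 and 0.16 on the log2 scale, and the code L4 held a si-NEAT1_2 library alone.

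The deposited FPKM of TGM2 was 108, 99.7 and 90.4 in NC, and 96.7, 60.7 and 114 in si-NEAT1_2. TGM2 stood above 92.2% to 96.2% of all genes in a library. The mean FPKM was 99.4 ± 8.87 (SD, n = 3) in NC and 90.5 ± 27.2 (SD, n = 3) in si-NEAT1_2, a difference of -8.98% (two-sided exact permutation test, p = 0.80). Without si-NEAT1_2 replicate 2 it was 5.98%. Over the 6 libraries the coefficient of variation was 7.88% for the CPM of TGM2 and 19.7% for its FPKM.

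**Figure D1:**
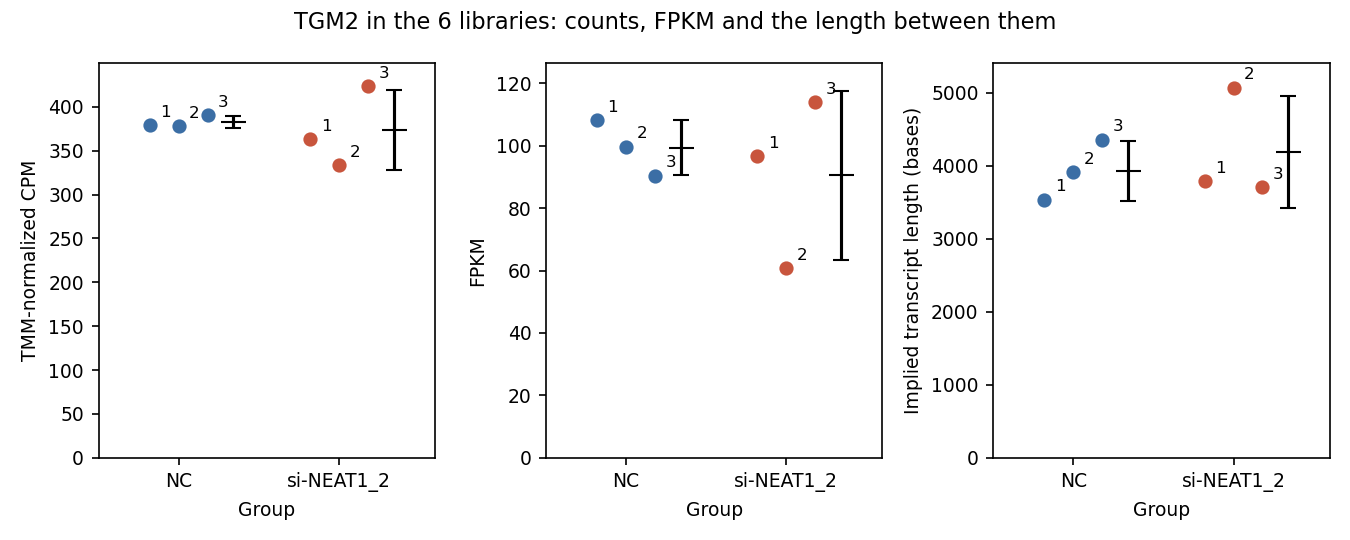
TGM2 in each of the 6 libraries as TMM-normalized CPM, FPKM and implied transcript length in bases, with points for libraries (numbers give the replicate), horizontal bars for group means and vertical bars for 1 SD (n = 3). The groups overlap in all 3 panels, and si-NEAT1_2 replicate 2 has the lowest FPKM, 60.7, and the longest implied length, 5070 bases.

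A count and an FPKM of the same gene and library differ by a length, which can be computed as the count divided by the FPKM and the total count. For the 308 to 329 genes per library with 1 annotated transcript, this implied length was within 0.1% of the annotated length in 100% of them, so it can be read as the mean length of the transcripts to which counts were assigned. For TGM2 the implied length was 3540, 3910 and 4359 bases in NC, and 3789, 5070 and 3705 bases in si-NEAT1_2. In si-NEAT1_2 replicate 2 it equalled the longest annotated transcript, ENST00000361475 (5070 bases), whereas the other 5 libraries lay between 69.8% and 86.0% of it. The mean was 3936 ± 410.5 bases (SD, n = 3) in NC and 4188 ± 765 bases (SD, n = 3) in si-NEAT1_2 (two-sided exact permutation test, p = 0.70), a difference of 6.39% that was -4.82% without si-NEAT1_2 replicate 2. The groups overlapped, with NC replicate 3 above si-NEAT1_2 replicates 1 and 3.

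GENCODE release 29 lists 6 TGM2 transcripts, of which 3 are coding, with 5070, 1018 and 693 bases. If the counts not on the longest transcript were all on the coding transcript of 1018 bases, their share would have been 10.9%, 7.45% and 4.10% in NC, and 8.50%, 0% and 9.26% in si-NEAT1_2. With the retained-intron transcript of 1862 bases in its place, the share would have been 25.1% in NC replicate 1 and 21.4% in si-NEAT1_2 replicate 3. With the retained-intron transcript of 3467 bases it would have been 93.5%, 64.1% and 35.3% in NC, and 73.1%, 0% and 79.7% in si-NEAT1_2. The share thus depends strongly on the transcript assumed. These shares are arithmetic on an assumed pair of transcripts, and counts per transcript were not analysed here. Compared with the NC mean, si-NEAT1_2 replicate 2 differed by -12.8% in CPM, by 28.8% in implied length and by -38.9% in FPKM. The longest implied length of TGM2 was 1.43 times the shortest. A ratio of at least 1.3 was found in 8.68% of 6858 genes with several transcripts, and a ratio as large as that of TGM2 in 3.79%. In 23.8% of these genes the longest implied length was in si-NEAT1_2 replicate 2.

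In the group table the FPKM of TGM2 was 1008 in the NC column and 336 in the si-NEAT1_2 column, with expected counts of 64212 and 25178. The decrease was 66.7% in FPKM, a log2 ratio of -1.59, and 64.6% in CPM. The column of each group is a single value, so the decrease has no replicate check and no test. Of the 11042 genes with an FPKM of at least 1 in either column, 14% were at a ratio of 0.5 or lower, and 552 genes were at or below the ratio of TGM2.

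The group values of TGM2 did not lie within the range of the libraries of the same name. The NC value was 10.1 times the median of the 3 NC libraries and 9.33 times the highest of them. The si-NEAT1_2 value was 3.47 times the median of the 3 si-NEAT1_2 libraries and 2.95 times the highest. The expected count of TGM2 in the table was 6.59 times the mean of the NC libraries and 2.76 times that of the si-NEAT1_2 libraries, although the columns held 17678761 and 19579897 counts in all, fewer than any library. A group FPKM of at least 2 times the library median was found in 15.8% of 11638 genes for NC and in 12.8% of 11362 genes for si-NEAT1_2. Among genes with a library median of at least 1 FPKM, a ratio above that of TGM2 was rarer. It was found in 65 of 10986 genes for NC and in 300 of 10889 genes for si-NEAT1_2. The implied length of TGM2 in the table, 3603 bases for NC and 3828 bases for si-NEAT1_2, lay within the range of the libraries, so the excess was in counts and not in length. The way the group table was made is not given in the sources used here. A mean or median of the 3 libraries of a group would lie within their range, so the TGM2 values are not such summaries of these libraries.

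**Figure D2:**
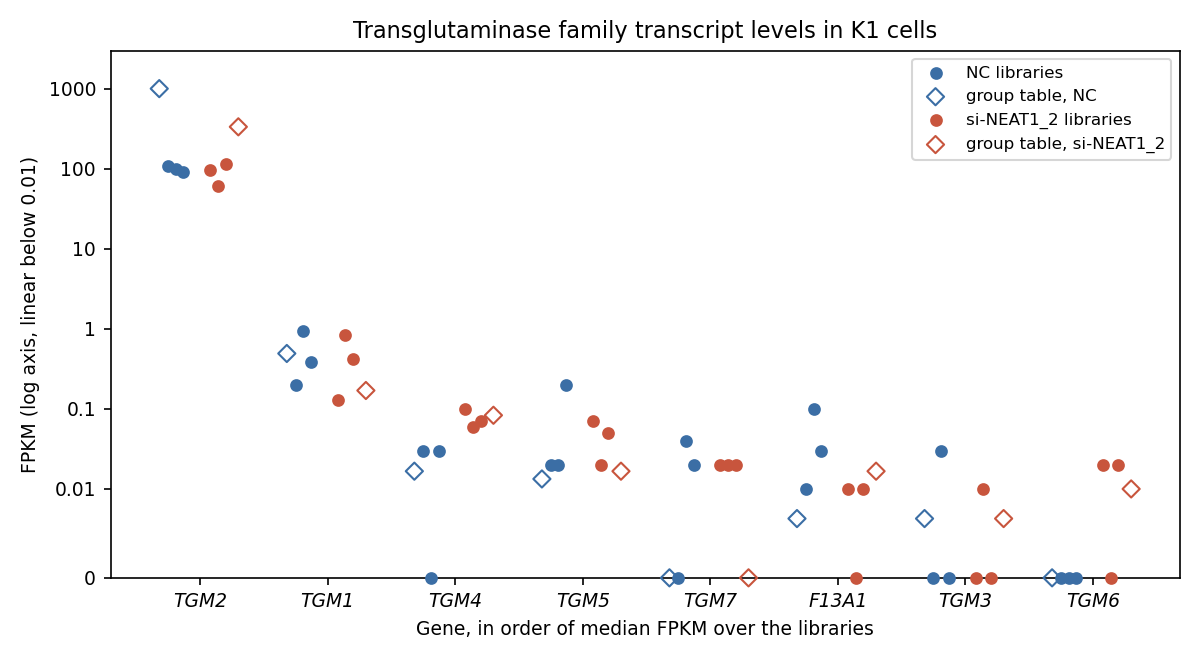
FPKM of the 8 family members on a log axis that is linear below 0.01, with filled points for the libraries and open diamonds for the group table, blue for NC and red for si-NEAT1_2. TGM2 lies between 60.7 and 114 FPKM in the libraries and at 1008 and 336 in the group table, and no other member exceeds 0.93.

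TGM2 made up 98.5% to 99.8% of the summed FPKM of the family in the libraries, and the other 7 members together had 14 to 31 counts per library. In order of their median FPKM the members were TGM2 (98.2), TGM1 (0.405), TGM4 (0.045), TGM5 (0.035), TGM7 (0.02), F13A1 (0.01), and TGM3 and TGM6 (0 each). The range of TGM2 did not overlap that of TGM1, which was 0.13 to 0.93 FPKM. The range of TGM1 lay above that of TGM4, 0 to 0.10 FPKM, but overlapped that of TGM5, 0.02 to 0.20 FPKM. All further neighbours in this order overlapped, so their order was not resolved at this depth.

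Of the epidermal members, TGM1, which cross-links the cornified envelope at the keratinocyte membrane, had 9, 24 and 12 counts in NC, and 9, 13 and 15 counts in si-NEAT1_2. The groups overlapped, and NC replicate 2 was the highest library. Its fitted log2 fold change was -0.25 (95% interval -1.45 to 0.96, standard error 0.546, adjusted p = 0.792 in edgeR), and it was 0.34 without NC replicate 2. In FPKM, TGM2 exceeded TGM1 by 72.3 to 744 times within a library. The group table listed TGM1 at 0.493 FPKM for NC and 0.17 for si-NEAT1_2, from 7.67 and 3.67 counts.

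TGM5, another epidermal enzyme, had 1, 1 and 10 counts in NC and 4, 1 and 3 counts in si-NEAT1_2. NC replicate 3 was the highest and the groups overlapped. Over the summed counts, 12 against 8, the ratio of si-NEAT1_2 to NC per depth was 0.667 (exact 95% interval for counting error 0.237 to 1.77). NC replicate 3 held 10 of the 12 NC counts, and without it the ratio was 2.66, in the opposite direction. TGM3, known from epidermis and hair follicles, had 2 counts in NC replicate 2, 1 count in si-NEAT1_2 replicate 2 and 0 in the other 4 libraries. TGM7, a little-studied member, had 0, 2 and 1 counts in NC and 1 count in each si-NEAT1_2 library. These 3 genes were at or under the 3 counts that a zero allows in most libraries, and no fold is given for TGM3 and TGM7.

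TGM4, the prostate transglutaminase, had 3, 0 and 3 counts in NC, and 8, 5 and 6 counts in si-NEAT1_2. It was the member whose groups did not overlap, with every si-NEAT1_2 library above every NC library. Of the 17970 genes with a count, 11.9% had all si-NEAT1_2 libraries above all NC libraries in CPM. The summed counts, 6 against 19, gave a ratio of si-NEAT1_2 to NC per depth of 3.17 (exact 95% interval for counting error 1.22 to 9.70). TGM4 did not pass the filter on low counts, and in the fit without that filter it was at 1.68 on the log2 scale (standard error 1.02, adjusted p = 0.371 in edgeR). The group table listed 1 count for NC and 5.33 counts for si-NEAT1_2. KLK2 and KLK3, which mark prostate epithelium, were at 0 to 0.07 FPKM.

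F13A1, the factor XIII subunit that macrophages and megakaryocytes make, had 1, 2 and 3 counts in NC and 1, 0 and 1 counts in si-NEAT1_2. The ratio per depth of the summed counts, 6 against 2, was 0.334 (exact 95% interval for counting error 0.0329 to 1.87), and no difference was detectable at this depth. Of 5 leukocyte markers, 4 were under 1 FPKM in every library, and their summed level, nearly all CD68, was 12.1 to 13.6 FPKM in NC and 15.5 to 20.6 FPKM in si-NEAT1_2, whose part in these counts was not tested. The group table listed 0.333 counts for NC and 1.33 for si-NEAT1_2. TGM6, known from the nervous system, had 0 counts in the 3 NC libraries, which allows up to 0.0484 to 0.0574 FPKM, and 1, 0 and 1 counts in si-NEAT1_2. In the fit without a filter, which tested all 8 members, 0 were called. F13B, the carrier subunit of factor XIII, EPB42 and KY, a muscle protein with a transglutaminase-like domain, were at 0 to 0.10 FPKM and none of these 3 relatives was tested.

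**Figure D3:**
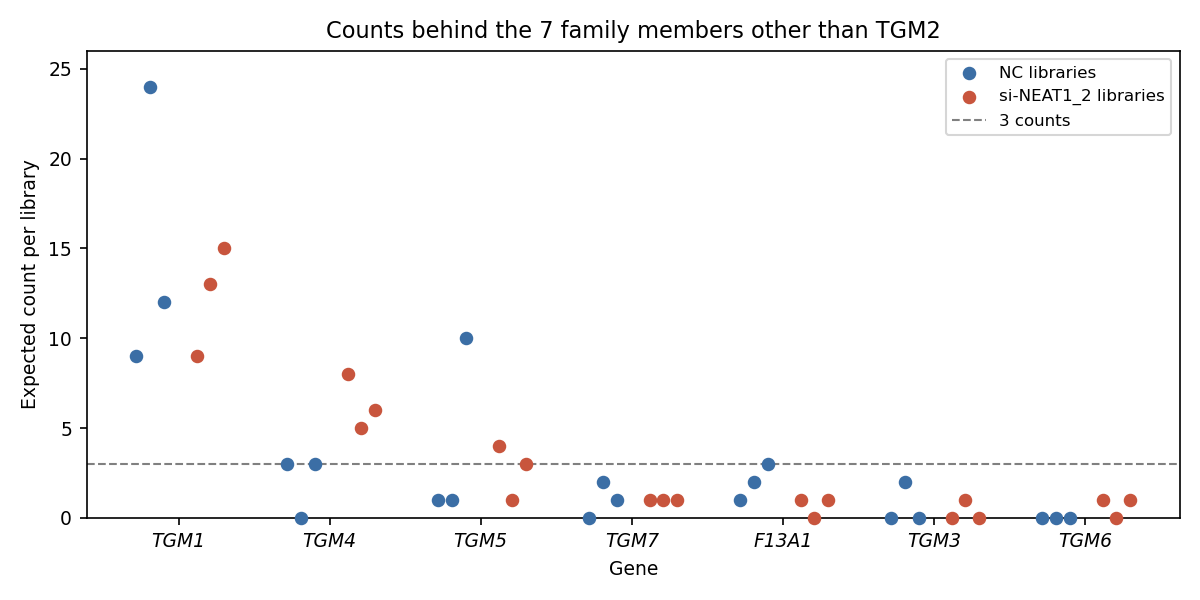
Expected counts per library of the 7 members other than TGM2, with blue points for NC, red points for si-NEAT1_2 and a dashed line at 3 counts. TGM4 is the gene whose groups do not overlap (0 to 3 against 5 to 8 counts), and TGM1 is the gene with more than 3 counts in every library.

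The genes that work with TGM2 were described by lists taken from general knowledge. Of 16 regulators and surface partners of TGM2, 16 were tested and 0 were called, while 1 had a higher and 4 a lower value at an unadjusted p under 0.05. Over all genes tested this share was 24.5%, with 1419 genes higher and 1663 lower. The median log2 fold change of the list was -0.20, against 0.01 over all genes tested. ITGB5, an integrin subunit that binds vitronectin, had the highest log2 fold change, 0.55 (standard error 0.131, adjusted p = 0.169 in edgeR). It was at 290.3, 231 and 263 CPM in NC, and at 360.5, 369 and 421 CPM in si-NEAT1_2, and the groups did not overlap, as in 30% of the genes tested. LRP6, a Wnt co-receptor, had the lowest, -0.72 (standard error 0.276, adjusted p = 0.175), and was at 40.7, 57.6 and 40.8 CPM in NC and at 36.9, 15.4 and 31.8 CPM in si-NEAT1_2. Its groups did not overlap in CPM either. In FPKM they did, with si-NEAT1_2 replicate 1 at 8.20 and NC at 7.53, 9.06 and 6.21. The value of LRP6 was -0.26 with a correction for trends with GC content and length, which was added after the data were seen, and -0.44 without si-NEAT1_2 replicate 2. The adjusted p of ITGB5 was 0.0190 in DESeq2, with a change below the size a call needs. The group table listed ITGB5 at 55.9 FPKM for NC and 31.1 FPKM for si-NEAT1_2, and LRP6 at 4.09 and 4.20 FPKM. ITGB5 was thus lower in si-NEAT1_2 there and higher in the libraries, whereas the LRP6 values there were nearly equal.

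Of 16 extracellular matrix substrates, 14 were tested and 0 were called, with 1 higher and 1 lower at an unadjusted p under 0.05, against 24.5% of all genes. FN1 (fibronectin), the matrix protein that the study links to TGM2, was at 2110, 2246 and 2089 FPKM in NC, and at 1901, 1277 and 2121 FPKM in si-NEAT1_2. Its lowest value was in si-NEAT1_2 replicate 2 and the groups overlapped. The fitted change was -0.34 on the log2 scale (standard error 0.219, adjusted p = 0.335 in edgeR), and -0.12 without si-NEAT1_2 replicate 2. The highest of the list was MDK (midkine, a heparin-binding growth factor) at 0.61 (standard error 0.175, adjusted p = 0.169), and the lowest was THBS1 (thrombospondin 1) at -0.66 (standard error 0.154, adjusted p = 0.169). THBS1 was at 325.57 to 395 FPKM in NC and at 151 to 234 FPKM in si-NEAT1_2, and MDK at 39.1 to 55.3 FPKM in NC and at 59.1 to 75.8 FPKM in si-NEAT1_2, so the groups did not overlap for either gene. In DESeq2 the adjusted p was 0.0073 for THBS1 and 0.0460 for MDK, with changes below the size a call needs. The GC and length correction gave -0.38 for THBS1 and 0.16 for MDK. The group table listed THBS1 at 1.34 FPKM for NC and 1.20 FPKM for si-NEAT1_2, far below every library. In the same order it listed FN1 at 2929 and 1307 FPKM and MDK at 172 and 75.8 FPKM. MDK was thus lower in si-NEAT1_2 there and higher in the libraries.

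Of 17 intracellular substrates, 16 were tested and 0 were called, with 2 higher and 2 lower at an unadjusted p under 0.05, against 24.5% of all genes. HSPB1, a small heat shock protein, had the highest log2 fold change, 0.47 (standard error 0.185, adjusted p = 0.177 in edgeR), and RB1, the retinoblastoma protein, the lowest, -0.60 (standard error 0.193, adjusted p = 0.169). GAPDH, a glycolytic enzyme often used as a reference, was at 0.34 (standard error 0.162, adjusted p = 0.219). With the GC and length correction the values were -0.03 for HSPB1, -0.17 for RB1 and -0.01 for GAPDH. The group table listed HSPB1 at 90.1 FPKM for NC and 666 FPKM for si-NEAT1_2, each below every library of its group. In the same order RB1 was at 12.2 and 9.82 FPKM and GAPDH at 7651 and 8721 FPKM.

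Among 15 cornified envelope substrates, 4 were tested and 0 were called. FLG (filaggrin) was at 26.9, 47.7 and 31.6 FPKM in NC, and at 18.7, 5.68 and 24.3 FPKM in si-NEAT1_2. Every NC library lay above every si-NEAT1_2 library, with a log2 fold change of -1.09 (standard error 0.390, adjusted p = 0.170 in edgeR). The group table listed FLG at 0.0733 FPKM for NC and 0.0433 FPKM for si-NEAT1_2, far below every library. Of 6 keratinocyte markers, FLG among them, 4 were under 1 FPKM in every library. Their summed level, 37.2 to 59.6 FPKM in NC and 19.9 to 35.1 FPKM in si-NEAT1_2, was nearly all FLG and KRT10. KRT10 was at 10.1, 11.7 and 12.9 FPKM in NC and at 11.8, 13.8 and 10.5 FPKM in si-NEAT1_2 (log2 fold change 0.16, adjusted p = 0.522 in edgeR). PPL (periplakin) had the highest log2 fold change of the list, 0.12 (standard error 0.566, adjusted p = 0.903), with 0.07 to 0.27 FPKM and a direction that reversed in 4 alternatives.

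Among 12 factor XIII and seminal clot substrates, 4 were tested and 0 were called. SERPINF2, the plasmin inhibitor that factor XIII attaches to fibrin, was the lowest at 0.02 (standard error 0.640, adjusted p = 0.986 in edgeR), from 0.07 to 0.52 FPKM, and its direction reversed in 10 alternatives.

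**Figure D4:**
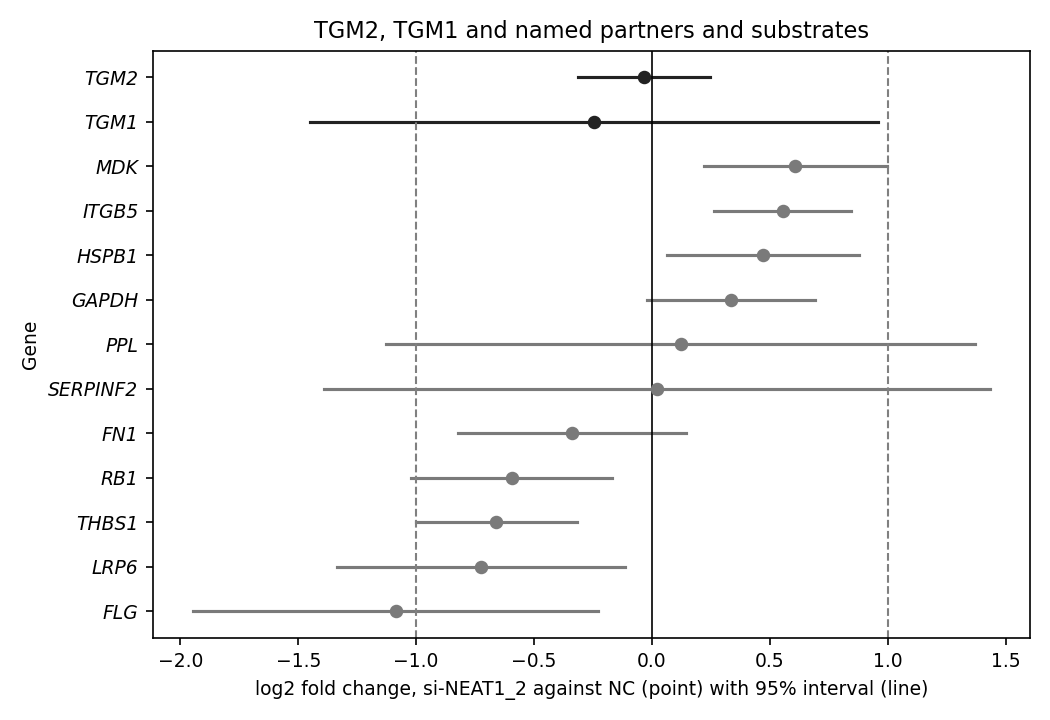
Log2 fold changes of si-NEAT1_2 against NC (points) with 95% intervals (lines) from edgeR's fit for the 2 tested family members, in black, and the named partners and substrates, in grey, with dashed lines at a fold change of 2. The interval of TGM2 runs from -0.31 to 0.25 around 0, and that of TGM1 from -1.45 to 0.96.

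The 5 genes whose log2 CPM over the 6 libraries was most like that of TGM2, among 5643 genes whose log2 CPM averaged 5 or more, were CAD (Pearson's r = 0.987), C17orf51 (0.978), TRIM26 (0.973), KMT2B (0.971) and URB1 (0.968). CAD was at 174, 175 and 186 CPM in NC, and at 155, 127 and 209.8 CPM in si-NEAT1_2. Like TGM2, these 5 genes had their lowest value in si-NEAT1_2 replicate 2 and their highest in si-NEAT1_2 replicate 3. They were picked by this correlation, so that likeness largely follows from the choice. Of the genes compared, 61 had an r over 0.9, and the median r was -0.08. These correlations are over 6 libraries that share their depth and composition and are given as a description.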

How the data were processed

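The members and gene lists were chosen with earlier results of these data known. By the study's methods, TopHat2 mapped the reads and RSEM quantified them. The submitters' processing notes name fastp 0.18.0, Bowtie2 2.2.8, HISAT2, StringTie 1.3.1 and GRCh38. The deposited expected counts are not normalized, and which of these tools gave them was not checked here. The deposited FPKM values were scaled by the authors for library size and transcript length. The authors deposited a group table that holds an expected count and an FPKM per group, and the group counts of all 8 members are multiples of 1/3 (tolerance 1e-04). Unannotated loci, 0.336% to 0.447% of the counts of a library, were left out of the test. Of the per-sample columns, 0 were left unmapped.

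Expected counts were rounded, filtered with filterByExpr, scaled by TMM and tested over 12581 genes by quasi-likelihood in edgeR 4.0.16 (R 4.3.3), with Benjamini-Hochberg adjustment. A call took a change of 2-fold or more with an adjusted p under 0.05. TGM2 values were compared by two-sided exact permutation tests (scipy 1.17.1). Ratios of low counts carry exact (Clopper-Pearson) 95% intervals that cover counting error only. Implied lengths were compared for genes with at least 50 counts and 5 FPKM in every library used. Alternatives used DESeq2 1.42.0, limma 3.58.1 on log2(FPKM + 1) and log2(FPKM + 0.1), other scalings and filters, a replicate block, the labels' library code, the omission of each library and, added after the data were seen, a correction for GC content and length (splines with 5 degrees of freedom). Simulated libraries of 12581 genes had 200 changed genes and were scored by an adjusted p under 0.05 alone, without the 2-fold rule. Scored in this way, the test recovered 74% of 2-fold and 95% of 3-fold changes, and 7.65% of the genes that passed were false. Recovery under the full call rule was not measured. The genes named were the 8 members, the tested genes with the highest and lowest log2 fold change of each list, FN1, GAPDH and the 5 genes most correlated with TGM2, except 1 list gene that is not reported here. Deviations from the group mean of libraries with the same replicate number correlated at -0.289, -0.375 and -0.0201. With 3 libraries per group and si-NEAT1_2 replicate 2 apart from the rest, these values cannot settle whether libraries were paired. Replicate numbers were not taken as pairs in the main test, and the replicate block is given as an alternative. Positions are from GENCODE release 29 (GRCh38).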

Additional observations from a re-analysis of the deposited data

How the results depend on the processing

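The number of members called was 0 in each direction under all 18 alternatives, whereas the number of all genes called was not stable. The fit without a filter tested 8 members, that with at least 10 counts in every library 1 (TGM2), and the others 2. DESeq2 gave TGM1 no adjusted p, so TGM1 could not be called there. Against 0 higher and 0 lower genes in edgeR's quasi-likelihood test, DESeq2 called 18 and 44, the fit without a filter 9 and 8, an unadjusted p with a fold change of 2 gave 73 and 110, and leaving out si-NEAT1_2 replicate 1 gave 43 and 292. The GC and length correction gave 1 and 3, leaving out si-NEAT1_2 replicate 2 gave 1 and 1, and total counts or limma on log2(FPKM + 0.1) gave 0 and 1. The cause was not tested. For TGM2 the log2 fold change ran from -0.18 to 0.03 over 17 alternatives (adjusted p 0.546 to 0.957) and reversed, to 0.0330, without si-NEAT1_2 replicate 2, and leaving out each library gave -0.13 to 0.03. The FPKM difference of TGM2 ranged from -20.8% to 5.98% and its implied length difference from -4.82% to 12.5% when each library was left out. In CPM in place of FPKM, the group table's difference for TGM2 was -64.6%, and the group values were 9.30 and 3.51 times the library medians. With the replicate block TGM2 was at -0.04 and TGM1 kept its side of the threshold, the count of called genes was 0 both ways (1449 genes with an unadjusted p under 0.05), and the block changed no call. TGM1 reversed to 0.0902 with the library code as covariate and lay between -0.57 and 0.34 when each library was left out. HSPB1 reversed to -0.0278 and GAPDH to -0.0108 with the GC and length correction, and to -0.0284 and -0.0105 with the block added. PPL reversed to -0.0043 with limma on log2(FPKM + 1) and ranged from -0.18 to 0.90 over omitted libraries. SERPINF2, from -0.69 to 0.50 over omitted libraries, reversed to -0.0195 with total counts, to -0.0244 and -0.11 with limma on log2(FPKM + 1) and log2(FPKM + 0.1), to -0.0756 with the block, to -0.73 with the library code, to -0.23 with the GC and length correction and to -0.34 with both block and correction. The ratio of summed counts, with each library left out in an alternative added after the data were seen, was 2.21 to 4.20 for TGM4, 0.466 to 2.66 for TGM5, which reversed without NC replicate 3, and 0.246 to 0.509 for F13A1. The other 7 named genes kept their direction without a call, but the GC and length correction moved MDK from 0.61 to 0.16, RB1 from -0.60 to -0.17, LRP6 from -0.72 to -0.26, THBS1 from -0.66 to -0.38 and FN1 from -0.34 to -0.20. Their adjusted p fell under 0.05, with changes under 2-fold, in DESeq2 for THBS1 (0.0073), ITGB5 (0.0190) and MDK (0.0460), and without si-NEAT1_2 replicate 1 for these 3 (0.0394, 0.0405 and 0.0401), LRP6 (0.0471) and RB1 (0.0425). In every library 2 members had more than 3 counts and 3 members had more than 0. Depth limits the 6 members not tested.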
